A study of Mus musculus with 9 samples.

Results

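The 9 genes followed here mark or act in the primitive endoderm and were measured in mouse embryonic stem cells (ESCs) with and without the DNA methyltransferase DNMT1. They are the transcription factor genes Gata4, Gata6, Sox7, Sox17 and Foxa2, the receptor tyrosine kinase gene Pdgfra, and the endocytic genes Dab2, Cubn and Amn. They were chosen by name, all 9 were found among the 15074 named genes of the deposited gene table, and no filter removed any of them. The 9 RNA-seq libraries cover 3 lines at days 0, 2 and 4 of differentiation, with 1 library for each line and day. WT cells are J1 ESCs, 1KO cells are Dnmt1-/- ESCs made from J1, and 1KO+1CI cells are 1KO cells with a transgene, driven by the constitutive CAG promoter, for DNMT1 with the C1229S mutation, which removes its catalytic activity. Several clones of the transgenic line were made, and the sources do not say which of them the 1KO+1CI libraries come from. With 1 library for each line and day, an effect of the transgene or the deletion and a property of the clone or culture cannot be told apart. All ESCs had been grown with LIF on a feeder layer of growth-arrested mouse embryonic fibroblasts (MEFs). For differentiation, the feeder cells were first depleted by a short adhesion step, which the sources do not mention for the undifferentiated cells of day 0. Embryoid bodies were formed for 1 day in serum medium without LIF and then cultured attached. The study set out to learn whether the catalytic activity of DNMT1 affects ESC differentiation, and these genes bear on the primitive endoderm branch of that question.

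The primitive endoderm is the layer of the late blastocyst that faces the cavity and later forms the parietal and visceral endoderm of the yolk sac. FGF-ERK signalling favours Gata6 over the pluripotency factor gene Nanog in its precursors, GATA6 and GATA4 activate Sox17 and Sox7, and PDGFRA is an early surface marker that promotes survival of the lineage. Visceral endoderm feeds the embryo by endocytosis. Cubilin, encoded by Cubn, has no membrane anchor of its own and binds amnionless, encoded by Amn, for its transport to the apical surface, while megalin (Lrp2) is its partner in uptake, and DAB2 is the clathrin adaptor that brings such receptors into coated pits.

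Because DNMT1 copies methylation at CpG dinucleotides, the start regions of Cubn, Pdgfra and Dab2, which were called higher in 1KO+1CI than in WT, are printed here with each CpG in capitals, beside that of Amn, the partner of Cubn, for which no difference between lines was called. Each window holds 250 bases before and 50 bases after a RefSeq start (GRCm38.p6, the build mm10 of the gene table), 5′ to 3′ on the strand of the gene. Such windows were used for 5 of the 9 genes, with 3 for Foxa2 and 2 for Dab2. No window of Gata6 or Sox7, which were called higher in the same comparison, was used. The Cubn window lies wholly upstream of the span of the gene in GENCODE M21, which ends at position 13491813.
Cubn, chr2:13491827-13492126, minus strand: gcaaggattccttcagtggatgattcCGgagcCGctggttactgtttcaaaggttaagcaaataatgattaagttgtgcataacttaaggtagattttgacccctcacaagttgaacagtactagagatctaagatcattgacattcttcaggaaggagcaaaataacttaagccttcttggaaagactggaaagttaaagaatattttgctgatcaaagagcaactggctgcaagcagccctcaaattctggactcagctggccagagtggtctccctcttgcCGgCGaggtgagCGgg
Pdgfra, chr5:75152001-75152300, plus strand: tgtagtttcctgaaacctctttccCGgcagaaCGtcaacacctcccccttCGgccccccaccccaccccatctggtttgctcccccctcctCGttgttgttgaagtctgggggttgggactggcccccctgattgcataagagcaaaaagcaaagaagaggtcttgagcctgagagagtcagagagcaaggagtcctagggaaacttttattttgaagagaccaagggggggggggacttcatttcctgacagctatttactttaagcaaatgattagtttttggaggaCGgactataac
Dab2, upstream start, chr15:6299539-6299838, plus strand: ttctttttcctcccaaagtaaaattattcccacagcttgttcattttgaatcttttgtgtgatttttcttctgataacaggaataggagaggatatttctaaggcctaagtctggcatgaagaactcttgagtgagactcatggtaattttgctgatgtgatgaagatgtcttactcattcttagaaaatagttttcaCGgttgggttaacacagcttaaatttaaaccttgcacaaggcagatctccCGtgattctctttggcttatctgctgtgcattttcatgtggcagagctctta
Dab2, downstream start, chr15:6386498-6386797, plus strand: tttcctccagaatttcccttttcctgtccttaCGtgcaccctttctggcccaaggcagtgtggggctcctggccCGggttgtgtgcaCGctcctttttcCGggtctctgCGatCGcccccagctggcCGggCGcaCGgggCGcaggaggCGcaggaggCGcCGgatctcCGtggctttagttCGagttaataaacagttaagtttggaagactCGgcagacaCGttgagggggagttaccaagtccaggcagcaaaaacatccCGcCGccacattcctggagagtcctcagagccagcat
Amn, chr12:111270846-111271145, plus strand: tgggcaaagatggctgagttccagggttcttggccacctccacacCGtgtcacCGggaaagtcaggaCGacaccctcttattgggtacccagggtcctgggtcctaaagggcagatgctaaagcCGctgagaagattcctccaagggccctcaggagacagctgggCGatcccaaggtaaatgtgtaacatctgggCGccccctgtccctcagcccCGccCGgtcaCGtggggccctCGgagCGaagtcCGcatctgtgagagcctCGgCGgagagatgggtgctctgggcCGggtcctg
The windows of Cubn and Pdgfra hold 5 CpG each and that of Amn 15, against a median of 7 over 32851 windows of the same length. The 2 starts of Dab2 lie far apart in this respect, with 2 CpG at the upstream and 19 at the downstream one, and the gene table does not say which start the RNA came from. The 3 Foxa2 windows hold 12, 23 and 13. The letters AGATAA, which fit the sequence that GATA factors bind, occur on either strand in 11.2% of all windows. Among the 5 genes they occur in the upstream Dab2 window, on the reverse strand as TTATCT, and in 1 of the 3 Foxa2 windows, on the forward strand. Methylation was not measured at any of these sites in the data used here.

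Dnmt1 itself followed the labels. Its level, in FPKM (reads scaled to transcript length and library size), was 74.0, 80.4 and 48.5 in WT at days 0, 2 and 4, 13.7, 17.4 and 12.3 in 1KO, and 315, 129 and 158 in 1KO+1CI. The transgenic line therefore carried more Dnmt1 RNA than WT on every day, and reads of the transgene and of the remaining endogenous transcript cannot be told apart in the table. The libraries hold between 20200000 and 28000000 counted reads, as recovered from the steps of the FPKM values. Of the 9 genes, 8 are low, with a mean level between percentiles 10.34 and 22.7 of all genes, and Dab2 lies at percentile 45.58. In bulk RNA, more cells of a type and more RNA per cell cannot be told apart, and this holds for every value given here.

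Across the 9 libraries, 5 of the 9 genes were ordered WT below 1KO below 1KO+1CI on all 3 days, namely Sox7, Sox17, Pdgfra, Dab2 and Cubn. The order takes no account of counting error, within which some steps of Sox7, Sox17 and Pdgfra lie. This order held on all 3 days for 2.86% of all genes, and on a given day for 19% (day 0), 25% (day 2) and 23.5% (day 4). Gata6 joined it on days 2 and 4, Amn only on day 2 and Foxa2 only on day 4. Gata4 was lowest in 1KO on every day and never followed it. The WT libraries serve in both contrasts against WT and the 1KO libraries in both contrasts with 1KO, so these contrasts are not independent of each other. The plot of the 9 levels shows the course of each gene.

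**Figure D1:**
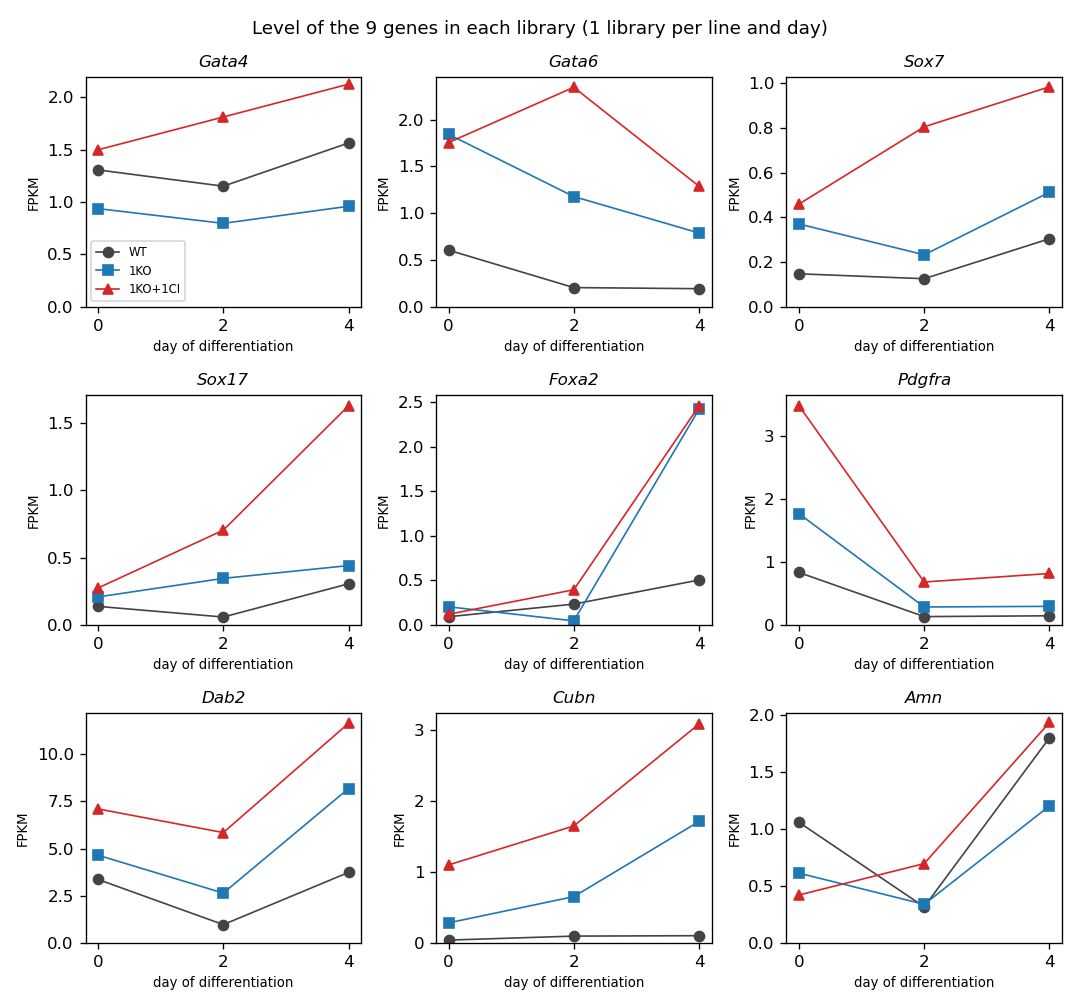
Level of each of the 9 genes in FPKM (vertical axis, starting at 0, own scale for each gene) at days 0, 2 and 4 (horizontal axis), 1 point per library, with WT as grey circles, 1KO as blue squares and 1KO+1CI as red triangles. In the panels of Sox7, Sox17, Pdgfra, Dab2 and Cubn the red line lies above the blue and the blue above the grey on each day, Gata4 is lowest in 1KO, and the lines of Amn cross. There are no error bars because each point is 1 library.

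Differences were read in 2 ways. At a given day, each line has 1 library, so there is no test, and the difference of log2(FPKM + 0.1) was read against the share of all genes at least 2-fold apart in the same direction. Over the 3 days, 1 additive model with terms for line and day was fitted to all 15074 genes with limma, with Benjamini-Hochberg adjustment over all of them. Its 4 residual degrees of freedom measure how far the line differences varied between days. They hold no spread between cultures or clones of a line.

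Among the transcription factors, Gata6 (chromosome 18) is the earliest regulator of the lineage. Its level was 0.606, 0.206 and 0.194 FPKM in WT at days 0, 2 and 4. In 1KO it was 1.84, 1.18 and 0.789 FPKM, and in 1KO+1CI 1.75, 2.35 and 1.29 FPKM. All 6 libraries without catalytically active DNMT1 were therefore above all 3 WT libraries, and only the transgenic line was higher at day 2 than at day 0. The whole read numbers behind these values could be recovered. With 165 reads in 1KO and 40 in WT at day 0, the ratio at equal depth was 3.04 (exact 95% interval, counting error only, 2.14 to 4.41), and at day 2 it was 5.72 (3.31 to 10.5). Against 1KO, the ratio of 1KO+1CI was 0.952 (0.753 to 1.20) at day 0, 1.99 (1.51 to 2.64) at day 2 and 1.63 (1.15 to 2.33) at day 4, so that the 2 lines were not separated at day 0 and stood apart at days 2 and 4. In the additive fit, Gata6 rose from WT to 1KO+1CI by 2.21 on the log2 scale (SE 0.28, limma adjusted p = 0.0266). The estimate for 1KO against WT was 1.71 (SE 0.28, limma adjusted p = 0.0685), which did not pass.

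Gata4 (chr14:63198922-63271692), which acts with Gata6 and is kept on in the mature endoderm, did not share that pattern. Its level was 1.31, 1.15 and 1.56 FPKM in WT, 0.937, 0.797 and 0.960 FPKM in 1KO, and 1.498, 1.81 and 2.12 FPKM in 1KO+1CI. Every 1KO value was below every value of the other lines, while the ranges of WT and 1KO+1CI overlapped. Its estimate for 1KO against WT was −0.52 (SE 0.14, limma adjusted p = 0.151) and for 1KO+1CI against 1KO 0.93 (SE 0.14, limma adjusted p = 0.900). Neither passed. Gata4 and Gata6, which bind the same DNA motif, thus had estimates of opposite sign in the comparison of 1KO with WT.

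Sox7 (chr14:63943673-63950732) and Sox17 (chr1:4490931-4497354) encode related SOX factors of the endoderm. Sox7 was at 0.148, 0.126 and 0.305 FPKM in WT, at 0.371, 0.233 and 0.513 FPKM in 1KO, and at 0.460, 0.806 and 0.985 FPKM in 1KO+1CI. Sox17 was at 0.137, 0.0582 and 0.305 FPKM in WT, at 0.208, 0.345 and 0.440 FPKM in 1KO, and at 0.274, 0.703 and 1.63 FPKM in 1KO+1CI. Both were thus highest in the day 4 library of 1KO+1CI. Few reads lie behind these values, 10 to 65 for Sox7 and about 3 to 73 for Sox17. For Sox7, the ratio of 1KO+1CI to 1KO was 1.24 (0.755 to 2.05) at day 0, 3.46 (1.96 to 6.47) at day 2 and 1.92 (1.27 to 2.94) at day 4. The Sox7 difference between 1KO and WT was outside counting error at day 0, at 2.51 (1.21 to 5.69), and not at day 2, at 1.85 (0.791 to 4.57), or day 4, at 1.68 (0.962 to 3.02). For Sox17, the ratio of 1KO to WT was 1.51 (0.566 to 5.12) at day 0, 5.93 (1.77 to 33.1) at day 2 and 1.44 (0.714 to 3.09) at day 4. That of 1KO+1CI to 1KO was 1.32 (0.601 to 3.09), 2.04 (1.09 to 3.97) and 3.70 (2.29 to 6.30) on the same days. Over the 3 days, Sox7 rose from WT to 1KO+1CI by 1.53 (SE 0.23, limma adjusted p = 0.0345). Sox17 had a like estimate of 1.70 with a larger error (SE 0.36, limma adjusted p = 0.0646) and did not pass.

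Foxa2 (chr2:148042877-148046969) encodes a forkhead factor that is shared by visceral endoderm, definitive endoderm and the anterior primitive streak. It was near the limit of detection at days 0 and 2. Its level was 0.0913, 0.233 and 0.503 FPKM in WT, 0.203, 0.0450 and 2.42 FPKM in 1KO, and 0.119, 0.394 and 2.46 FPKM in 1KO+1CI, from about 2 to 18 reads at days 0 and 2 and about 22, 115 and 104 at day 4. At day 4 both lines without active DNMT1 therefore stood above WT, with a ratio to WT of 4.81 (3.06 to 8.05) for 1KO and 4.88 (3.09 to 8.20) for 1KO+1CI. The ratio of 1KO+1CI to 1KO at day 4 was 1.01 (0.771 to 1.33), so these libraries did not differ in Foxa2 beyond counting error. For Sox17 the same ratio was 3.70 (2.29 to 6.30). Foxa2 rose from day 0 to day 4 over the lines by 2.75 (SE 0.60, limma adjusted p = 0.0253), as did 8.69% of all genes. Foxa2 and Sox17 are also expressed in definitive endoderm, and of 10 measured genes of definitive endoderm and mesendoderm, 5 (Eomes, Foxa1, Lhx1, Mixl1 and T) rose from day 0 to day 4 in the same fit. At day 4 the levels of all 10 summed to 65.7 FPKM in the WT library, against 233 for 1KO and 217 for 1KO+1CI. Of these sums, Fgf8 held 8.51, 84.5 and 63.0 FPKM. In both lines 7 of the 10 were above WT, as were 50.7% of all genes. Cxcr4, Foxa1 and Foxa3 were highest in WT. The fit called 0 of the 10 in any comparison of lines. WT was the lowest in the sums and in Foxa2. The part of definitive endoderm and mesendoderm in the Foxa2 values was not tested.

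Pdgfra (chr5:75152292-75198215) is the surface receptor that marks primitive endoderm precursors. Its level was 0.832, 0.131 and 0.144 FPKM in WT at days 0, 2 and 4. In 1KO it was 1.77, 0.284 and 0.294 FPKM, and in 1KO+1CI 3.48, 0.681 and 0.816 FPKM. The step from WT to 1KO and that from 1KO to 1KO+1CI were upward on each day. About 10 reads lie behind the WT value at each of days 2 and 4. The ratio of 1KO to WT was 2.12 (1.55 to 2.93) at day 0. At day 2 it was 2.17 (0.974 to 5.30) and at day 4 2.04 (0.880 to 4.64), both within counting error. The ratio of 1KO+1CI to 1KO was 1.97 (1.62 to 2.42), 2.40 (1.38 to 4.33) and 2.77 (1.68 to 4.94) on the 3 days. The log2 differences of 1KO from WT were 1.00, 0.73 and 0.69, and those of 1KO+1CI from 1KO were 0.94, 1.02 and 1.22. It rose from WT to 1KO+1CI by 1.87 (SE 0.12, limma adjusted p = 0.00446), while the estimates for 1KO against WT (0.81, limma adjusted p = 0.0619) and 1KO+1CI against 1KO (1.06, limma adjusted p = 0.658) did not pass. In all lines it was highest in undifferentiated cells. Pdgfra fell by 2.16 from day 0 to day 2 (limma adjusted p = 0.0031) and by 2.05 from day 0 to day 4 (limma adjusted p = 0.00117), as did 6.46% and 10.9% of all genes.

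Fibroblasts also express Pdgfra, and the median of genes of the MEF feeder layer had the same order of lines and was likewise lower after day 0. Of 15 feeder fibroblast genes, 14 were measured, and their median level at day 0 was 9.62 FPKM in WT, against 13.3 for 1KO and 16.7 for 1KO+1CI. It was 2.08, 3.40 and 3.98 FPKM at day 2 and 2.22, 3.40 and 4.57 FPKM at day 4. The summed level at days 0, 2 and 4 was 430.5, 274.3 and 261.6 FPKM for WT and 561.9, 219.7 and 291.6 FPKM for 1KO. For 1KO+1CI it was 671.7, 245.2 and 675.9 FPKM, as high at day 4 as at day 0, with Tagln at 417 and Acta2 at 147 FPKM at day 4. The whole gene table holds no value of 0, so the absence of 0 from this list says nothing about feeder cells. Its lowest value was 0.208 FPKM, for Prrx1 in WT at day 2. In the additive fit 11 of the 14 fell from day 0 to day 2 and 11 from day 0 to day 4, Col1a1, Col1a2 and Col3a1 among them, and 2, Col1a2 and Prrx1, rose from WT to 1KO+1CI. Pdgfrb, the other PDGF receptor and a gene of mesenchymal cells, was at 2.12, 2.39 and 3.15 FPKM in WT, 1KO and 1KO+1CI at day 0 and between 0.547 and 0.986 FPKM afterwards. It fell by 1.70 from day 0 to day 2 (SE 0.16, limma adjusted p = 0.00571). The part of the feeder cells in the Pdgfra values was not tested. Their median was also higher in 1KO+1CI than in WT at day 0, where Gata6, Dab2 and Cubn were too. From day 0 to day 4 in 1KO, the log2 difference was 2.25 for Cubn, 0.80 for Dab2 and −1.13 for Gata6. In the same comparison 11 of the 14 feeder genes were at least 2-fold lower and 2, Tagln and Twist1, were higher. Their part in the values of Gata6, Dab2 and Cubn was not tested.

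**Figure D2:**
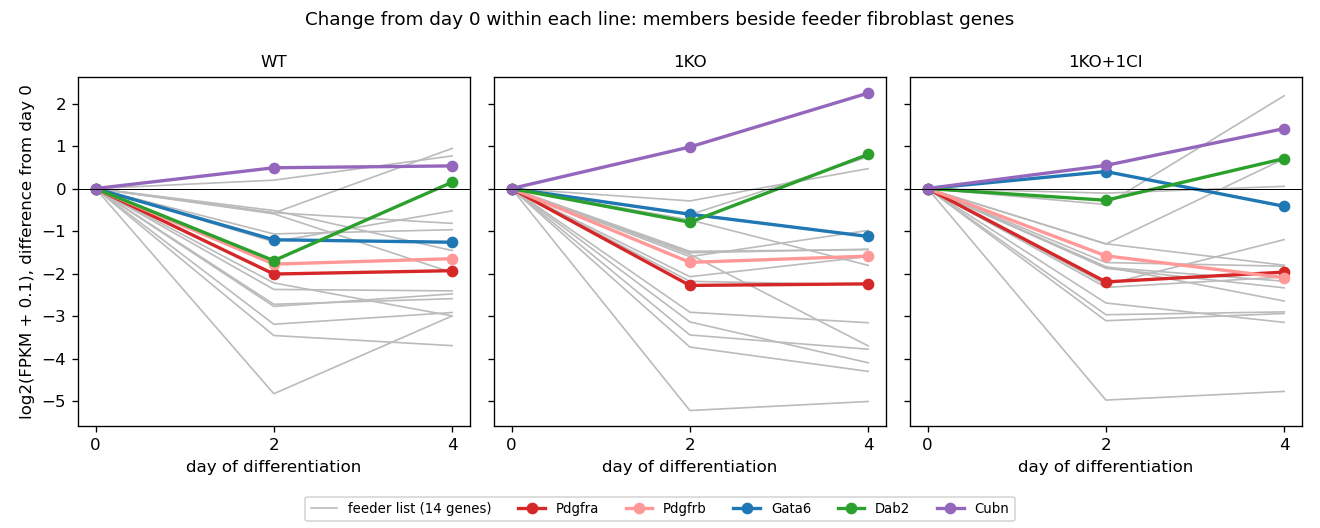
Change from day 0 within each line, as the difference of log2(FPKM + 0.1) (vertical axis), at days 0, 2 and 4 (horizontal axis), 1 library per line and day. The 14 grey lines are feeder fibroblast genes, and Pdgfra (red) and Pdgfrb (pink) lie among them in every line. Pdgfra is at −2.01, −2.28 and −2.20 at day 2 in WT, 1KO and 1KO+1CI. Cubn (purple) lies above 0 in every line and Dab2 (green) is above 0 at day 4. Gata6 (blue) is below 0 at day 4 in every line, at −1.26, −1.13 and −0.42 in WT, 1KO and 1KO+1CI.

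The ligands of the PDGF receptors showed no common direction. Of Pdgfa, Pdgfb, Pdgfc, Pdgfd and Pdgfrb, 0 of 5 passed the limma fit in any comparison of lines, with medians of 0.20 for 1KO against WT and −0.09 for 1KO+1CI against 1KO. Pdgfa, the main ligand of PDGFRA in the early embryo, was at 11.3, 20.6 and 15.1 FPKM in WT, 1KO and 1KO+1CI at day 0 and at 3.53, 8.66 and 14.6 FPKM at day 4. Of 15 genes of the FGF-ERK pathway and its targets, 0 passed in any comparison of lines either. In these comparisons at most 1.58% of all genes were called higher and 1.19% lower. The median difference of the 15 was −0.02 both for 1KO less WT and for 1KO+1CI less 1KO. Single members stood apart on single days. Etv4, a target of the pathway, was at 9.17, 29.5 and 21.9 FPKM in WT, 1KO and 1KO+1CI at day 0, and Fgf5 was at 2.52, 14.7 and 16.7 FPKM at day 2. Fgf4, the ligand, had 36.4, 31.8 and 38.3 FPKM in WT, 1KO and 1KO+1CI at day 0, and 21.4, 6.11 and 5.14 FPKM at day 4.

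Of the endocytic genes, Cubn (chr2:13276338-13491813), which encodes the uptake receptor cubilin, had the largest estimate of the 9 in each comparison of lines in the additive fit. In WT it was at 0.0390, 0.0950 and 0.101 FPKM at days 0, 2 and 4. In 1KO it was at 0.281, 0.650 and 1.71 FPKM, and in 1KO+1CI at 1.10, 1.64 and 3.08 FPKM. Every value of 1KO was above every value of WT, and no value of 1KO reached that of 1KO+1CI on the same day. These values rest on about 9 to 26 reads for WT, 89 to 435 for 1KO and 295 to 699 for 1KO+1CI. The ratio of 1KO to WT was 7.21 (3.67 to 16.5) at day 0, 6.84 (4.51 to 10.8) at day 2 and 16.9 (11.2 to 26.6) at day 4. That of 1KO+1CI to 1KO was 3.90 (3.06 to 4.99), 2.53 (2.09 to 3.06) and 1.80 (1.60 to 2.04) on the same days. The lead of the transgenic line over 1KO was thus widest before differentiation. Its ratio to WT was 28.1 (14.7 to 62.6) at day 0, 17.3 (11.7 to 26.9) at day 2 and 30.5 (20.2 to 47.7) at day 4, with overlapping intervals. In the limma fit, Cubn rose from WT to 1KO+1CI by 3.42 (SE 0.31, adjusted p = 0.0102) and from day 0 to day 4 by 1.40 (SE 0.31, adjusted p = 0.0256). The estimate for 1KO against WT, 2.19 (SE 0.31, limma adjusted p = 0.0545), did not pass. Within 1KO the log2 difference of day 4 from day 0 was 2.25, within 1KO+1CI 1.41 and within WT 0.53.

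Dab2 (chr15:6299788-6440712), the clathrin adaptor, was the most abundant of the 9 genes. Its level was 3.36, 0.968 and 3.73 FPKM in WT, 4.65, 2.64 and 8.18 FPKM in 1KO, and 7.10, 5.84 and 11.6 FPKM in 1KO+1CI. Every line had its lowest value at day 2, and the dip was deepest in WT, at a log2 difference from day 0 of −1.70, beside −0.79 for 1KO and −0.28 for 1KO+1CI. These rest on about 82 to 818 reads, so counting error was small. The ratio of 1KO to WT was 1.38 (1.18 to 1.62) at day 0, 2.73 (2.10 to 3.58) at day 2 and 2.19 (1.90 to 2.53) at day 4. That of 1KO+1CI to 1KO was 1.53 (1.35 to 1.73), 2.21 (1.86 to 2.64) and 1.42 (1.28 to 1.58). Dab2 rose from WT to 1KO+1CI by 1.72 (SE 0.26, limma adjusted p = 0.0364). For 1KO against WT the estimate was 0.98 (SE 0.26, limma adjusted p = 0.151) and for 1KO+1CI against 1KO 0.74 (SE 0.26, limma adjusted p = 1.00), and neither passed.

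Amn (chr12:111271095-111276426) encodes the partner without which cubilin does not reach the membrane, and its course differed from that of Cubn. Its level was 1.06, 0.316 and 1.80 FPKM in WT, 0.612, 0.338 and 1.20 FPKM in 1KO, and 0.420, 0.696 and 1.94 FPKM in 1KO+1CI. The ranges of the 3 lines overlapped, and WT held the highest of the day 0 values. With 37 reads in WT and 17 in 1KO+1CI at day 0, the ratio to WT was 0.397 (0.210 to 0.723). At day 2 it was 2.20 (1.09 to 4.69), and at day 4 it was 1.07 (0.751 to 1.54). Against 1KO, the ratio of 1KO+1CI was 0.686 (0.354 to 1.29), 2.06 (0.998 to 4.50) and 1.61 (1.09 to 2.40) on the 3 days. Over the 3 days its estimates were −0.39 (SE 0.37, limma adjusted p = 0.703) for 1KO against WT, 0.35 (SE 0.37, limma adjusted p = 1.00) for 1KO+1CI against 1KO and −0.04 (SE 0.37, limma adjusted p = 0.970) for 1KO+1CI against WT. Amn was higher than Cubn in all 3 WT libraries and in 1KO at day 0, and lower than Cubn in every other library, on the per-length FPKM scale. Across the 9 libraries, Pearson's r of log2(FPKM + 0.1) was 0.16 for Cubn with Amn, 0.76 for Cubn with Dab2 and 0.91 for Sox7 with Sox17. These are descriptions over 9 libraries that share lines and days, with no test.

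**Figure D3:**
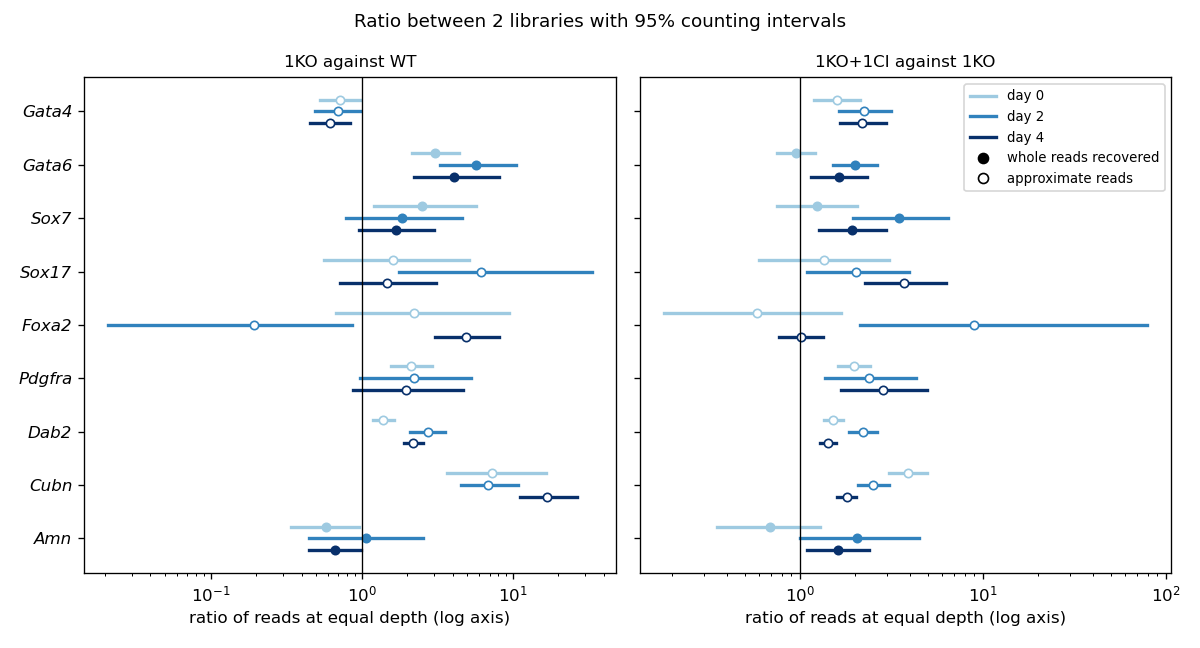
Ratio of reads at equal depth between 2 libraries (horizontal log axis) for the 9 genes, 1KO against WT on the left and 1KO+1CI against 1KO on the right, at days 0, 2 and 4 from light to dark blue, with exact 95% intervals that cover counting error only. Filled circles are genes whose whole reads were recovered and open circles approximate reads. Cubn and Dab2 lie to the right of 1 with their intervals on every day in both panels, and Gata4 lies below 1 on the left and above 1 on the right.

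The other genes of the uptake machinery had median differences between lines near 0 in the fit. Of 19 partners, among them Lrp2, the receptor chaperone gene Lrpap1 and the clathrin and AP2 genes, 0 rose in any comparison of lines in the limma fit, and 1, Gipc1, fell from WT to 1KO+1CI (−0.90, SE 0.13, limma adjusted p = 0.0348, with 1.19% of all genes called lower). Their median differences were 0.05 for 1KO against WT, 0.02 for 1KO+1CI against 1KO and 0.11 for 1KO+1CI against WT. At day 4, 16 of the 19 were above WT in 1KO and 17 in 1KO+1CI, as were 50.7% of all genes in each case, with a median of 0.33 in 1KO+1CI. Lrpap1 was then at 22.7, 40.8 and 57.5 FPKM in WT, 1KO and 1KO+1CI. Lrp2, which encodes megalin, was at 11.6, 4.15 and 3.71 FPKM in WT, 1KO and 1KO+1CI at day 0, at 12.7, 17.5 and 15.3 FPKM at day 2, and at 18.8, 25.0 and 34.5 FPKM at day 4. It was thus highest in WT at day 0 and lowest in WT afterwards. Lrp2 rose from day 0 to day 4 by 2.15 over the lines (SE 0.47, limma adjusted p = 0.0252).

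Counted together, 7 of the 9 genes were above WT in 1KO on each day, against 48.9%, 50.5% and 50.7% of all genes at days 0, 2 and 4. They were not the same 7 on each day. Gata4 and Amn were below WT at days 0 and 4, and Gata4 and Foxa2 at day 2. At day 0, 3 of 9 were at least 2-fold higher in 1KO than in WT (Gata6, Pdgfra and Cubn), against 5.96% of all genes, with a median log2 difference of 0.66 against −0.01 over all genes. At day 2 it was 4 of 9 against 5.58%, namely Gata6, Sox17, Dab2 and Cubn, with a median of 0.73, and Foxa2 was at least 2-fold lower, against 3.11% of all genes. At day 4 it was 4 of 9 against 4.96%, namely Gata6, Foxa2, Dab2 and Cubn, with a median of 0.69. The limma fit over the 3 days called 0 of 9 between 1KO and WT, where 0.385% of all genes were called higher. At an unadjusted limma p under 0.05, 5 of the 9 were higher (Gata6, Sox7, Pdgfra, Dab2 and Cubn, against 7.56% of all genes) and 1, Gata4, was lower (against 7.65%).

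Between 1KO+1CI and 1KO, which carry the same Dnmt1 deletion, 1 of 9 genes (Cubn) was at least 2-fold higher in 1KO+1CI at day 0, against 1.55% of all genes. At day 2 this held for 6 of 9 (Gata4, Sox7, Foxa2, Pdgfra, Dab2 and Cubn), against 1.8%, and at day 4 for 3 of 9 (Gata4, Sox17 and Pdgfra), against 2.63%. The median log2 difference was 0.28, 1.09 and 0.81 on the 3 days, beside −0.02, 0.02 and 0.00 over all genes. At days 2 and 4 all 9 were above 0, the smallest being Foxa2 at day 4 (0.02), as were 53.5% and 50% of all genes. All 9 estimates of the additive fit were above 0 too, yet limma called 0 of 9, and it called 0% of all genes higher in this comparison. At an unadjusted limma p under 0.05, 6 of the 9 were higher (Gata4, Sox7, Sox17, Pdgfra, Dab2 and Cubn), against 2.55% of all genes, where 384 were higher and 264 lower.

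Between 1KO+1CI and WT, 5 of 9 genes were at least 2-fold higher at day 0 (6.59% of all genes), 6 at day 2 (7.01%) and 7 at day 4 (7.3%). Gata6, Sox7, Pdgfra, Dab2 and Cubn were among them on each day, Sox17 at days 2 and 4 and Foxa2 at day 4. At day 0 Amn was at least 2-fold lower, with 5.93% of all genes. The median log2 difference was 1.06, 2.00 and 1.91 on the 3 days. In the additive fit 5 of 9 rose from WT to 1KO+1CI (Gata6, Sox7, Pdgfra, Dab2 and Cubn), where 1.58% of all genes were called higher, and 0 fell. The fit needs all 3 days for these calls. Without day 0, day 2 or day 4 it keeps 2 residual degrees of freedom and called 0 of the 9, while the 5 estimates stayed between 1.30 and 3.57.

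**Figure D4:**
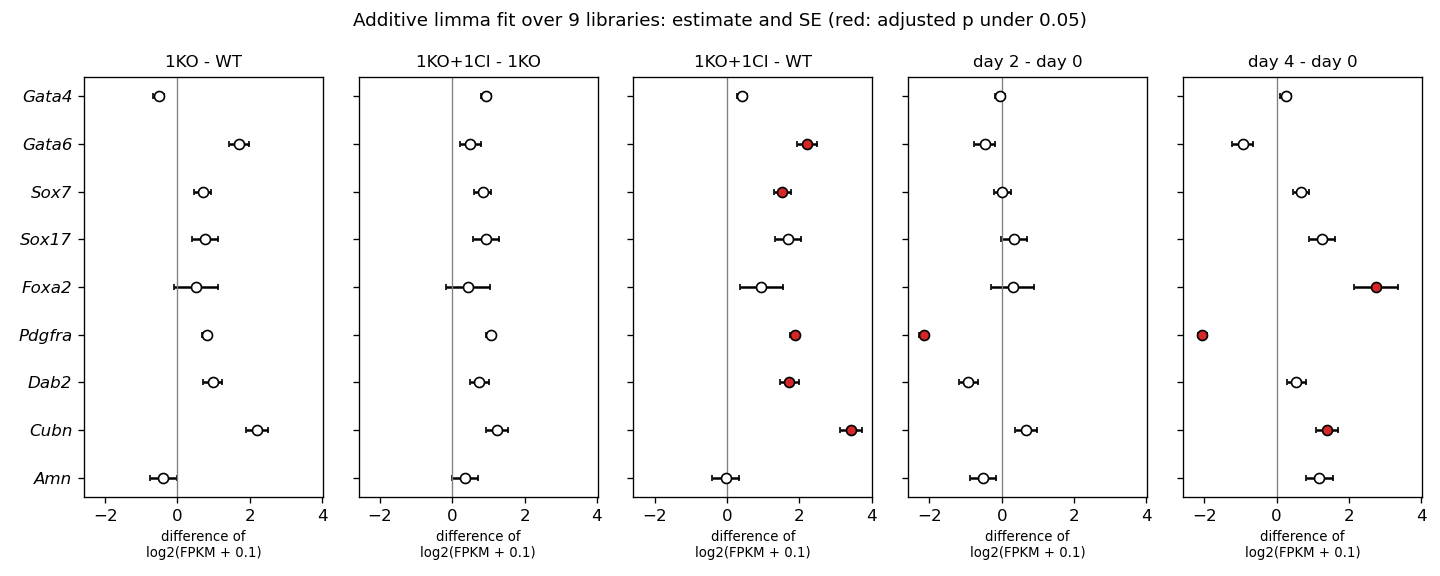
Estimate and SE of the additive limma fit over the 9 libraries for each gene (rows) in 5 comparisons (panels), as differences of log2(FPKM + 0.1) (horizontal axis). Red points have an adjusted p under 0.05 over all 15074 genes, which are Gata6, Sox7, Pdgfra, Dab2 and Cubn in 1KO+1CI against WT, Pdgfra on both days against day 0, and Foxa2 and Cubn at day 4 against day 0, while no point of the first 2 panels is red.

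Other genes of extraembryonic endoderm were examined beside them. Of 31 listed genes, 26 were measured. Hnf4a, Afp, Ttr, Apoa1 and Apoa4, which define mature visceral endoderm, are not among the 15074 named genes and so have no value here. The whole table holds no value of 0, and whether these genes lacked reads in some library is not known. The median difference of the 26 measured genes from WT at days 0, 2 and 4 was 0.32, 0.08 and 0.55 in 1KO. In 1KO+1CI it was 0.40, 0.10 and 1.26. At day 4, 17 of the 26 were at least 2-fold higher in 1KO+1CI than in WT (7.3% of all genes) and 10 in 1KO (4.96%), with 1 and 2 at least 2-fold lower. At day 2 it was 5 (7.01%) and 3 (5.58%), with 1 lower in each. At day 0 it was 5 (6.59%) and 7 (5.96%), with 4 and 1 lower. Against 1KO, 1KO+1CI had 0, 4 and 8 higher (1.55%, 1.8% and 2.63%) and 3, 0 and 0 lower on the 3 days. The limma fit called 1 higher in 1KO than in WT, Srgn, and 3 higher in 1KO+1CI than in WT, Srgn, Lama1 and Thbd. Of the 14 feeder fibroblast genes, 7 were at least 2-fold higher in 1KO+1CI than in WT at day 4 too, and 1 in 1KO. At days 0 and 2 it was 7 and 8 in 1KO+1CI and 6 and 3 in 1KO, with 0 lower on any day. The part of fibroblasts in the values of the 26 genes was not tested.

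Srgn, which encodes the proteoglycan serglycin, had the widest range of the list. It was at 0.0595, 0.102 and 0.188 FPKM in WT, 0.912, 1.35 and 3.04 FPKM in 1KO, and 1.91, 3.41 and 6.79 FPKM in 1KO+1CI. That is the order of Cubn, on every day. It rose from WT to 1KO by 2.99 (SE 0.20, limma adjusted p = 0.00472) and from WT to 1KO+1CI by 4.12 (SE 0.20, limma adjusted p = 0.00136). Lama1, the laminin chain of the parietal endoderm basement membrane, was at 3.68, 1.03 and 1.11 FPKM in WT, 4.12, 3.39 and 3.45 FPKM in 1KO, and 7.26, 9.71 and 12.4 FPKM in 1KO+1CI. It rose from WT to 1KO+1CI by 2.48 (SE 0.44, limma adjusted p = 0.0472). Thbd, thrombomodulin of the parietal endoderm, rose by 1.98 in the same comparison (SE 0.29, limma adjusted p = 0.033), and like Pdgfra it was highest at day 0 in every line, at 1.67, 6.29 and 8.09 FPKM in WT, 1KO and 1KO+1CI. The keratin genes Krt8, Krt18 and Krt19 were lowest in 1KO+1CI at day 0 and highest there at day 4, when Krt19 was at 23.2, 51.1 and 96.1 FPKM in WT, 1KO and 1KO+1CI. Trf, the gene of transferrin, was lower than in WT in both lines on day 4, at 1.70, 0.190 and 0.577 FPKM.

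**Figure D5:**
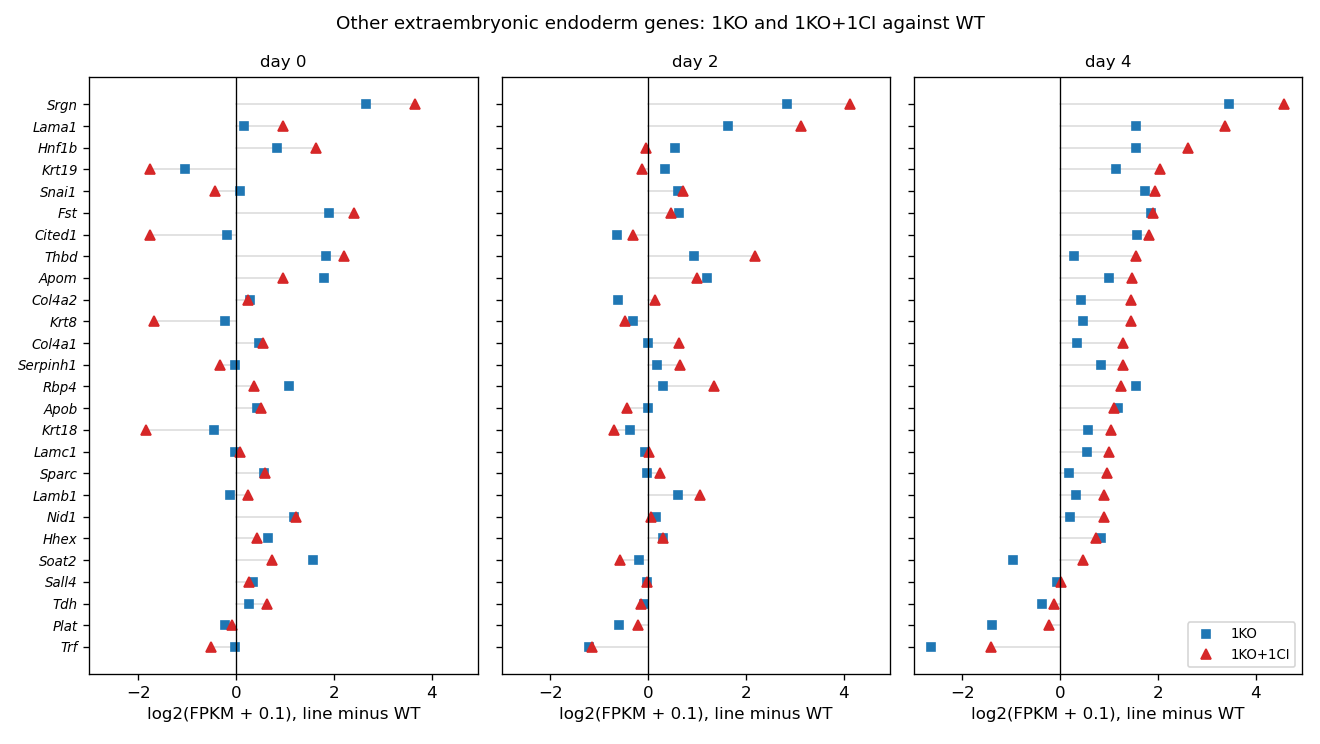
Difference of log2(FPKM + 0.1) from WT on the same day (horizontal axis) for 26 other genes of extraembryonic endoderm (rows, sorted by the day 4 value of 1KO+1CI), with 1KO as blue squares and 1KO+1CI as red triangles, 1 library each, at days 0, 2 and 4 in the 3 panels. At day 4, 23 of the 26 red triangles lie above 0, and 15 do at day 2.

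The genes whose profile over the 9 libraries was most like that of the members were named by Pearson's r with the mean standardised profile, among genes with at least 1 FPKM in some library. For the 5 transcription factors these were Cyp2b23 (r = 0.93), Pth1r (0.92), Rab24 (0.92), Gpx3 (0.92) and Zfp651 (0.92). Pth1r, the receptor of parathyroid hormone-related peptide, is known from parietal endoderm, and its level was 0.848, 0.653 and 1.03 FPKM in WT, 1.17, 1.24 and 2.71 FPKM in 1KO, and 1.23, 2.25 and 3.75 FPKM in 1KO+1CI. For Cubn, Amn and Dab2 they were Hs6st2 (r = 0.97), Lamb1 (0.96), Zfp651 (0.96), Irgm1 (0.96) and Phc2 (0.95). Lamb1, a laminin chain of basement membranes, was at 33.5, 41.9 and 62.7 FPKM in WT, 1KO and 1KO+1CI at day 4. With 9 points that share lines and days, these values describe likeness only.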

How the data were processed

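RNA-seq of 9 libraries was analysed, 1 for each of the WT, 1KO and 1KO+1CI lines at days 0, 2 and 4. The deposited FPKM values are the output of HOMER, run by the authors on alignments to mm10 that came from HISAT2 and SAMtools after trimming with Trim Galore. Not given in the sources used here are tool versions, annotation release and strand setting. The value of a symbol appears to be a mean over its RefSeq transcripts. Of 15095 rows, 21 without a gene symbol (1 named 0 and 20 dates) were left out, the remaining 15074 hold no value of 0, and 0 columns were left unmatched to a sample. The transgenic columns were matched by genotype and day, although their names carry a number, the same on each day, that is not explained. FPKM of repeat copies was not used.

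Values were compared as log2(FPKM + 0.1). One additive model (line and day, 9 libraries) was fitted with limma 3.58.1 (R 4.3.3) with a two-sided test and Benjamini-Hochberg adjustment over all 15074 genes, and a gene was called at an adjusted p of 0.05. The libraries of a line are successive days and not replicates, so p-values measure only how evenly a difference held over days or lines. Library depth was recovered from the steps of the FPKM values of genes with 1 transcript. Read numbers were whole, within 0.15 of a read, in all 9 libraries for Gata6, Sox7 and Amn. For the other 6 genes they are approximate, from FPKM, transcript length and depth, and their intervals, which had been planned for whole reads only, are approximate too. If 1 fragment was counted as a pair of reads, intervals are too narrow. Intervals are exact 95% Clopper-Pearson intervals and cover counting error only. The depth search and the fit were tested on simulated data. Gene positions are from GENCODE M21 (GRCm38). Python 3.11.15 was used for the rest.

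The 9 genes, the lists and the tests were chosen with earlier results of these data known. From each list, the highest and lowest gene of a comparison and those past 2-fold with at least 1 FPKM in some library could be named, and genes like the members by Pearson's r, 5 for each profile. Lrp2, Pdgfa, Pdgfrb, Fgf4, Krt8, Krt18, Col1a1, Tagln and Twist1 were named for their role, after their values were seen. Alternatives were the pseudocount, scaling, a filter on low values, the fold threshold, the prior variance of limma, and leaving out each day or line.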

Additional observations from a re-analysis of the deposited data

Results flagged for a closer look

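Foxa2 took opposite directions in pairs of comparisons. Its log2 difference of 1KO from WT was −1.20 at day 2 and 2.06 at day 4. From day 0 to day 2 it was −1.06 in 1KO and 1.17 in 1KO+1CI. Each value compares 1 library with 1 library, and neither difference between days or lines was tested. The day 2 libraries hold about 12 (WT), 2 (1KO) and 18 (1KO+1CI) Foxa2 reads, and those of day 0 about 12 (1KO) and 6 (1KO+1CI), so the day 2 values depend on very few reads. The day 4 value rests on about 115 reads in 1KO and 22 in WT.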

How the results depend on the processing

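Each value was recomputed with other settings. No difference called in the additive fit changed sign under any alternative run, but the number of calls did change. Over single libraries, a pseudocount of 1 FPKM, which is above most values of these genes, left 0, 0 and 2 of the 9 at least 2-fold higher in 1KO than in WT at days 0, 2 and 4, 0 on each day in 1KO+1CI against 1KO, and 2, 3 and 4 in 1KO+1CI against WT. With a pseudocount of 0.01 FPKM, 5 were higher in 1KO than in WT at day 0. A 1.5-fold threshold gave 5 in that comparison and, for 1KO+1CI against 1KO, 4 at day 0 and 7 at day 4. Scaling to the same sum of FPKM gave 2 for 1KO+1CI against 1KO at day 0. In the additive fit, limma called 1 gene (Cubn) higher in 1KO than in WT with a pseudocount of 0.01 FPKM and 2 (Gata6 and Cubn) with a trended prior variance. Against WT, 1KO+1CI had 0 calls without day 0, day 2 or day 4, where limma called 0 to 3 of all genes higher. Pdgfra and Dab2, 2 genes, were called lower at day 2 than at day 0 with a pseudocount of 1 FPKM or a trended prior, and 0 without 1KO or without 1KO+1CI. For day 4 against day 0, 1 was called higher without day 2 (Foxa2) and 0 without 1KO or without 1KO+1CI. Counted gene by gene over all comparisons and alternatives of the fit, 22 calls were lost, all in fits without a day or a line, 9 were gained and 392 results kept their side of the threshold. The cause of these changes was not tested beyond the fewer libraries of each reduced fit. The other settings kept every count of calls within 1.5 times. No paired analysis was possible because the labels give no replicate numbers, beyond the day term of the fit, which compares the lines within each day. Depth limits Foxa2, Sox17, Sox7 and Amn, with about 2 to 18, about 3 to 33, 10 to 56 and 12 to 37 reads at days 0 and 2. It also limits ratios to WT for other genes. In WT, Pdgfra has about 10 reads at each of days 2 and 4, Gata6 16 and 13, and Cubn about 9 to 26 over the days.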
